A study of Drosophila melanogaster with 4 samples.

Results

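Pipsqueak binding was described along chromosome arm 2L, the left arm of the second chromosome of Drosophila melanogaster. All peaks that the authors' list places on 2L were taken, 227 of the 1661 peaks of the series. They came from chromatin immunoprecipitation followed by sequencing in white prepupae, immobile animals at the onset of metamorphosis. There were 2 libraries of chromatin bound by the rabbit polyclonal antibody KW3-psq-D2 against Pipsqueak, and 2 libraries of input DNA. The labels give the strain of all 4 libraries as Y cn bw sp, and both groups carry the same genotype. It has y[1] and oc[R3.2] on the first chromosome. On the second it has the eye colour alleles cn[1] and bw[1], the body marker sp[1], the gustatory receptor alleles Gr22b[1] and Gr22d[1], and CG33964[R4.2]. On the third it has Rh6[1], GstD5[1] and MstProx[1], together with LysC[1] and lab[R4.2]. No tissue was named, so a peak can come from any cell type of the animal. The list is a single one for the series and names no replicate. Neither the spread over replicates nor the depth of a library can therefore be stated, and no test over peaks was made. Intervals below are exact 95% intervals that cover counting error only and take peaks as independent, which neighbouring peaks are not.

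Pipsqueak, the product of psq, carries an N-terminal BTB domain, through which such proteins associate with each other, and DNA-binding repeats of the helix-turn-helix Psq type. It is known to bind GAGA-rich DNA, a property it shares with the GAGA factor encoded by Trl, and to take part in silencing by Polycomb group proteins as well as in oogenesis and eye development. Positions are those of FlyBase release 5, counted from 1. The gene table at hand is of Release 6, so no gene was assigned to a peak. Whether a peak lies in a promoter, exon, intron or untranslated region, and the sequence under it, were not analysed here. Regions are named by position and described by their width and by the caller's score, the authors' own value, on which a higher value ranks a peak higher within the list.

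The strongest Pipsqueak peak of 2L lay at 16349910 to 16354471. It was 4562 bp wide, had a score of 206 and stood alone, with 24.5 kb to the peak before it and 138.0 kb to the peak after it. The second, at 11805569 to 11809112, was 3544 bp wide and had a score of 167. The third, at 21154764 to 21158141, was 3378 bp wide and had a score of 153. All 3 lay on the centromere-proximal side of the midpoint of the arm's peaks at 10.9 Mb.

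Further strong sites were spread over the whole arm. A peak at 489408 to 491563, near the telomere, had a score of 145 and a width of 2156 bp. One at 13164589 to 13166937 scored 142 over 2349 bp. The peak at 5906877 to 5908271 scored 136 over 1395 bp and stood alone, 182 kb after one peak and 191 kb before the next. The peak at 2751846 to 2753333 scored 129 over 1488 bp. After these 7 the scores stepped down by 26.3 to the peak at 12435353 to 12437357, with a score of 102, the last of the 8 above 100.

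The peak at 246319 to 251496 had a score of 95.2, that at 21237221 to 21238578 one of 92.1 and that at 7203418 to 7204545 one of 90.5. Peaks at 9493565 to 9495515 and at 19361480 to 19363416 shared a score of 82.2. The former had a strong neighbour 25.2 kb further on, at 9520732 to 9521836, with a score of 76.2. A pair at 6643675 to 6646182 and 6646238 to 6648700, only 55 bp apart, scored 71.2 and 57.3 and together spanned 5026 bp. Peaks at 72386 to 74048 and at 8415794 to 8418698 both had a score of 62.0, and a peak at 6099624 to 6100988 had 57.3. The 20th score, 53.96, was shared by the peaks at 7423916 to 7425995 and at 18562848 to 18564345, so that 21 peaks made up the top of the arm. The first peak left out scored 53.31. Of these 21 peaks, 13 (61.9%) lay before 10 Mb, near the share of all 2L peaks there, 128 of 227 (56.4%).

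**Figure D1:**
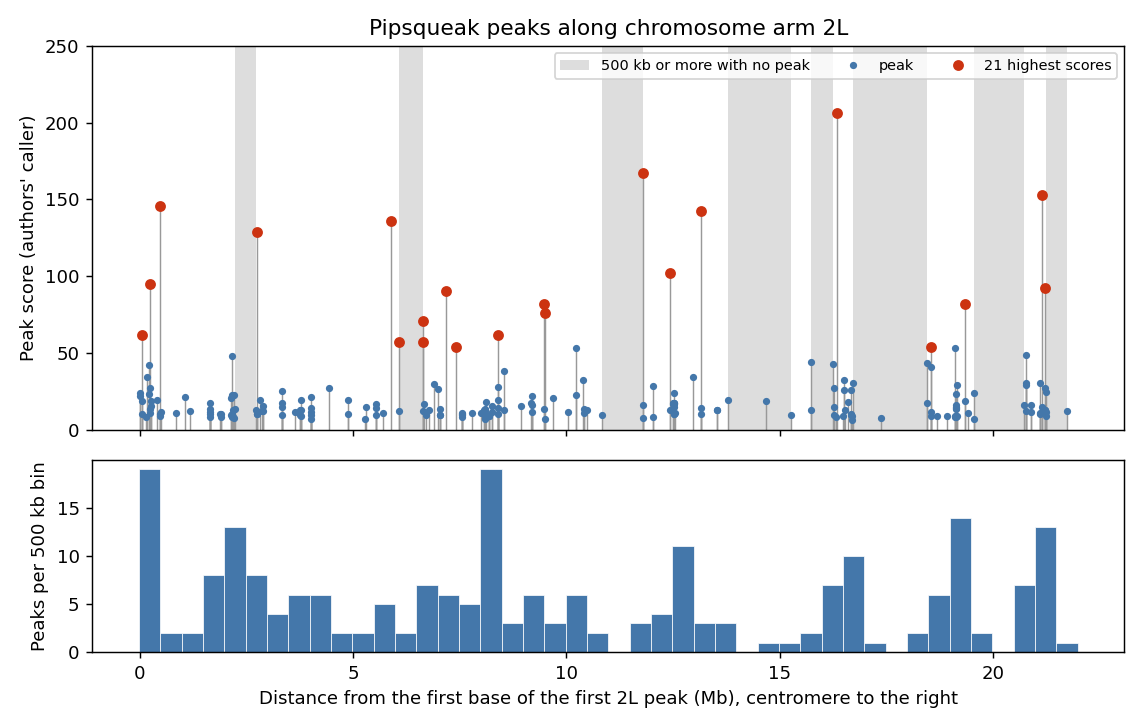
Top, the score of each of the 227 peaks on 2L (points on stems) against its distance in Mb from the first base of the first peak, with the 21 highest scores in red and peak-free stretches of 500 kb or more in grey. Bottom, the number of peaks in each 500 kb bin. The 3 highest scores, 206, 167 and 153, stand in the right part of the arm. The grey stretches lie mostly there too, but most of the stretches of 200 kb or more do not.

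Many of the strongest peaks had another peak close by. Of the 21 peaks, 15 had another peak 1 kb or less away, and over all 227 peaks of 2L 53.7% (interval 47.0 to 60.4) did. Since the 21 were chosen for their scores, most neighbours had to score lower. Directly adjacent peaks 1 kb or less away scored between 7.05 and 19.45 in 17 of 19 cases. The other 2 were the members of the pair at 6643675 to 6648700, which flank each other. A peak at 244982 to 245736, next but one to the peak at 246319 to 251496 and also within 1 kb of it, scored 27.3. It was not counted, as it was not adjacent. The second strongest peak of the arm, for example, lay between a peak of 559 bp with a score of 16.1 and a peak of 212 bp with a score of 7.67, across gaps of 222 and 54 bp. The peak at 489408 to 491563 lay between neighbours scoring 10.4 and 8.65. Whether a flank is a separate site cannot be told from the list. Over all 76 pairs of adjacent 2L peaks 1 kb or less apart, the scores of the 2 members differed, without regard to sign, by a median of 12.5 (interval 6.74 to 17.6). That difference was 6.95 (4.05 to 12.6) on 3L, 13.6 (9.45 to 18.0) on 3R and 7.48 (5.66 to 12.8) on X, so the interval of 2L overlapped that of each other arm.

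Width went with score, but not for every peak. The 57 widest peaks of 2L, of 823 bp or more, had a median score of 32.7. The 57 narrowest were 277 bp or less, with a median of 10.0 and none above 16.2. Spearman's rho between width and score over the 227 peaks was 0.78, and it was 0.79 on 3L, 0.81 on 3R and 0.80 on X. This is a description across peaks, and both quantities come from the same caller. The widest peak, at 246319 to 251496, covered 5178 bp but ranked ninth by score. The second widest, at 219727 to 224398, covered 4672 bp with a score of only 42.0 and ranked 29th. In the opposite sense, a peak at 20787393 to 20787814 reached a score of 48.8 over 422 bp. Of the 10 widest peaks, 7 were also among the 21 with the highest scores. The other 3 were the one at 219727 to 224398, one of 2573 bp at 19134915 to 19137487 with a score of 53.31, and one of 2489 bp at 2176644 to 2179132 with a score of 48.2.

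**Figure D2:**
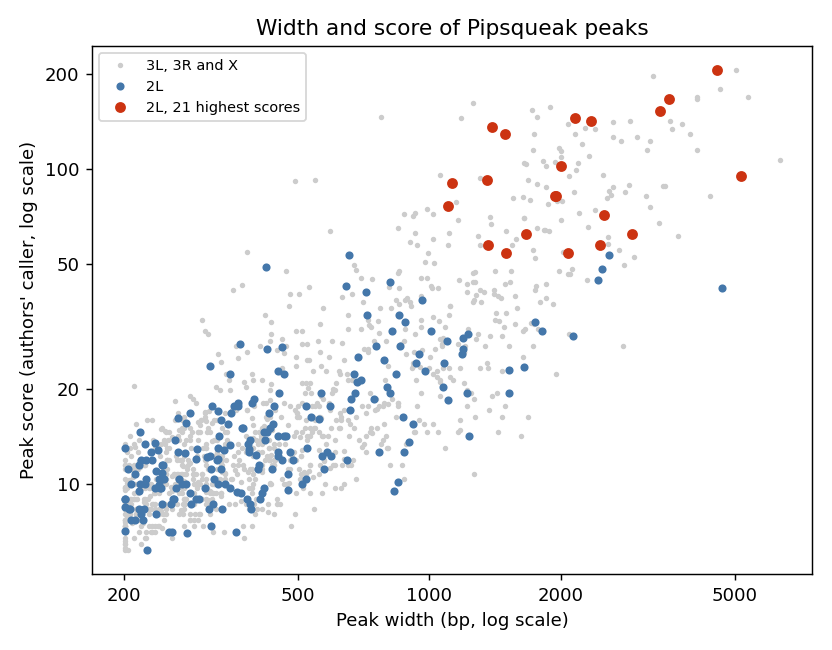
Score against width in bp for each peak, both axes on a log scale, with 2L in blue, its 21 highest scores in red and the peaks of 3L, 3R and X in grey. The 21 strongest 2L peaks are between 1105 and 5178 bp wide, and the 2L points lie over the cloud of the other arms.

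Most peaks of 2L were narrow and low. The median width was 413 bp (interval 373 to 451) and the median score 13.6 (12.6 to 15.5). There were 65 peaks under 300 bp, 5 of them at the shortest width of 201 bp, and 48 peaks with a score below 10. The lowest score, 6.16, belonged to a 226 bp peak at 16703077 to 16703302. All peaks together covered 161 kb, 0.741% of the 21.7 Mb from the first to the last peak.

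Joining peaks 10 kb or less apart, from the end of a peak to the start of the next, gave 109 groups on 2L. Lone peaks made up 52 of them, 28 held 2 peaks, 15 held 3, 7 held 4 and 7 held 5 or more. In all, 175 peaks, 77.1% (interval 71.1 to 82.4), shared a group with another. Of the 57 groups with 2 or more peaks, 28 were continuous in the sense that no internal gap exceeded 1 kb. The other 29 held at least 2 stretches parted by more than 1 kb.

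The 7 largest groups were of different kinds. The group at 19157073 to 19165062 held 8 peaks within 7.99 kb, covered 72.1% of that stretch and had no gap over 656 bp. Its highest score was 29.4, from a peak of 2131 bp. The group at 12542992 to 12546336 was as dense on a smaller scale, with 6 peaks covering 77.6% of 3.35 kb and a highest score of 24.3. The group at 2164157 to 2179132 also held 8 peaks, but in 2 stretches with 6.15 kb between them, and its strongest peak, the wide one with a score of 48.2, closed the group.

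Other large groups were loose. The longest group of the arm, 7 peaks over 26.0 kb at 8089633 to 8115610, consisted of small peaks of 208 to 475 bp, each more than 1 kb from the next. Peaks covered 8.69% of it, and no score exceeded 13.8. The groups at 1657994 to 1669736 and at 4028436 to 4037512 held 5 peaks each, with highest scores of 17.6 and 21.3 and with 13.0% and 22.4% of their length covered. Of the 7 large groups, the single one with a peak among the 21 strongest lay near the centromere, at 21237221 to 21253018. There the peak with a score of 92.1 opened a row of 7 over 15.8 kb, and the next highest score was 27.3.

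**Figure D3:**
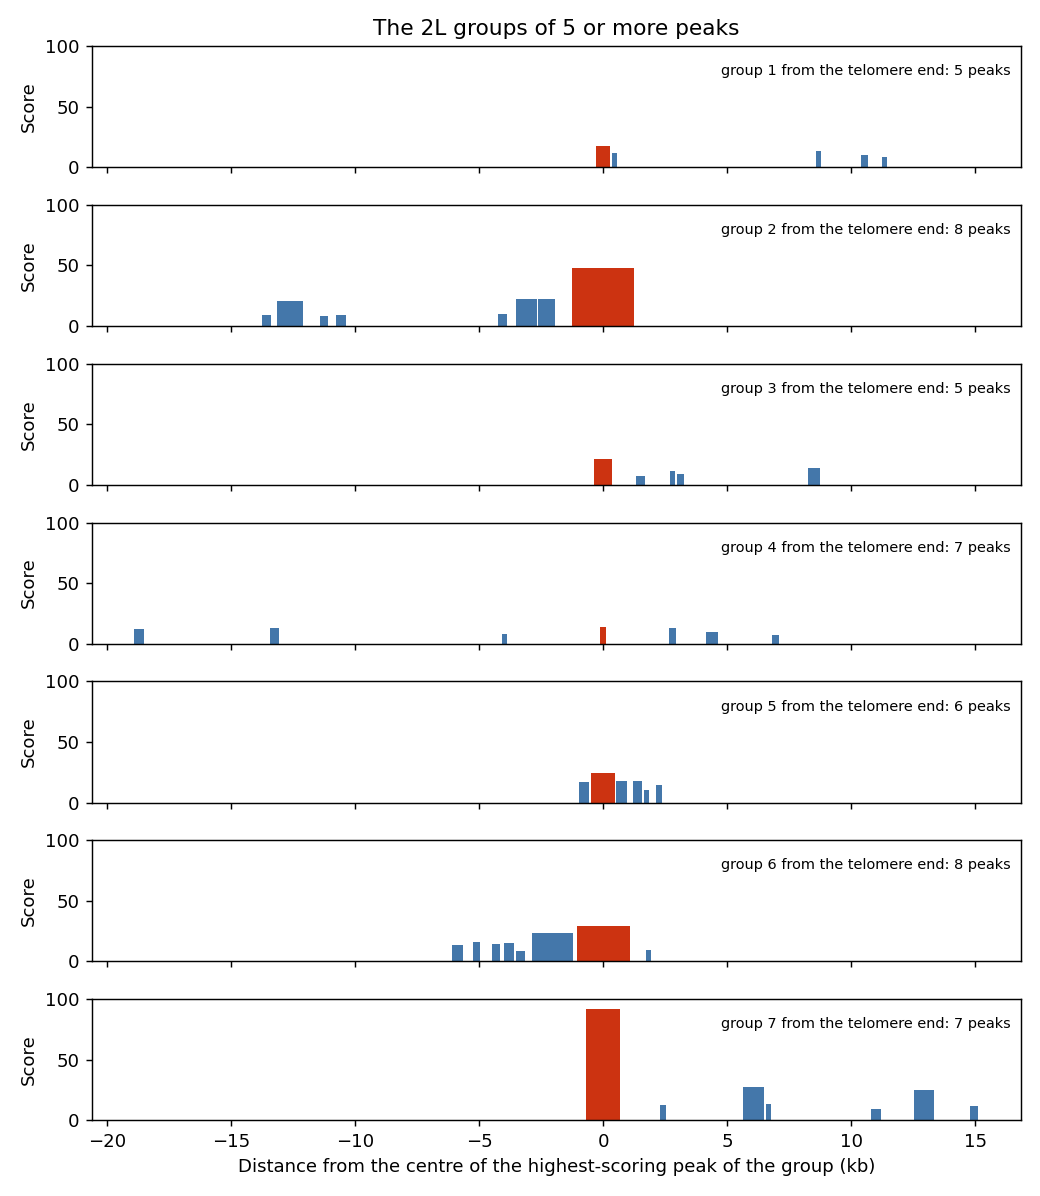
The 7 groups of 5 or more peaks on 2L, in order from the telomere. Each bar is a peak, as wide as the peak and as high as its score, placed by its distance in kb from the centre of the strongest peak of its group (red). Highest scores run from 13.8 in the fourth group to 92.1 in the seventh.

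Scores were also set against group size. Lone peaks had a median score of 12.6 (interval 11.1 to 18.5) and a highest score of 206, peaks in groups of 2 to 4 a median of 14.2 (12.6 to 16.8) and a highest score of 167, and peaks in groups of 5 or more a median of 13.2 (11.5 to 16.2) and a highest score of 92.1. The 3 medians lay within each other's intervals. Of the 21 strongest peaks, 4 (19.0%) were alone, 16 lay in groups of 2 to 4 and 1 in a larger group. Over all 2L peaks, 22.9% were alone, 56.8% lay in groups of 2 to 4 and 20.3% in larger ones. The lone ones were the peaks at 16349910 to 16354471, 5906877 to 5908271, 7203418 to 7204545 and 7423916 to 7425995.

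The 3 fullest windows of 100 kb were at 2164157 to 2237064, 19123650 to 19165062 and 12521036 to 12559382. They held 13, 11 and 10 peaks, which came to 6, 3 and 4 stretches once joined across gaps of up to 1 kb. Their highest scores were 48.2, 53.31 and 24.3, and none contained a peak among the 21 strongest. The score of 53.31 was the next below those 21, and the windows held a minor part of the 227 peaks. No conclusion was therefore drawn from that absence.

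Joining across gaps of up to 1 kb left 151 stretches on 2L. The widest was the dense group of 7990 bp at 19157073 to 19165062. It was followed by 4 peaks over 6967 bp at 244530 to 251496, of which 96.5% was covered, and by 4 peaks over 6752 bp at 8415794 to 8422545. A stretch of 6313 bp at 219727 to 226039 was made of 2 peaks with 119 bp between them. The stretch at 244530 began 18.5 kb after that one, so 2 of the 4 widest stretches of the arm lay within 31.8 kb near its telomere. The first 500 kb of the arm held 19 peaks, as many as the bin from 8 to 8.5 Mb, and these were the fullest bins of 2L.

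Peak-poor sequence made up most of the arm. In 36 stretches of 200 kb or more no peak was called, and together they took up 15.8 Mb, 72.7% of the distance from the first to the last peak. The longest ran from 19574701 to 20734552, 1160 kb, between peaks scoring 7.09 and 16.4. The next, of 1082 kb, ran from 17384024 to 18465875. The third, of 954 kb, ran from 10850454 to 11804788 and ended at the first flank of the second strongest peak of the arm. The fourth, of 877 kb, ran from 13811760 to 14688854.

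Another 6 stretches exceeded 500 kb. They ran from 16728442 to 17383804 (655 kb), 14689601 to 15274807 (585 kb), 6100988 to 6643675 (543 kb), 2237064 to 2751409 (514 kb), 15746461 to 16257219 (511 kb) and 21253018 to 21753255 (500.2 kb). The stretch of 543 kb was bounded on both sides by peaks among the 21 strongest, with scores of 57.3 and 71.2. The stretch of 514 kb ended at a flank, with a score of 12.6, of the peak that scored 129. Of these 10 longest stretches, 8 lay beyond 10 Mb. The larger part of the span also lies there, as its midpoint is at 10.9 Mb. Most of the stretches of 200 kb or more did not lie beyond 10 Mb, so the lean depends on the length limit. It was not tested. The 10 longest stretches summed to 7.38 Mb, 34.0% of the arm's peak span.

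Some long stretches were parted by a single small peak. From 16728442 to 18465875, over 1.74 Mb, the list holds 1 peak, of 221 bp with a score of 7.67. The longest stretch with no peak was about as long on 3L, at 1.15 Mb, as the 1.16 Mb of 2L, and was 0.994 Mb on 3R and 0.636 Mb on X. With 1 peak inside, the longest stretch was 1.19 Mb on 3L, 1.12 Mb on 3R and 0.828 Mb on X. From 13555015 to 16257219, over 2.70 Mb, 2L had 5 peaks with scores of 9.68 to 44.4, against 1.82 Mb on 3L, 1.82 Mb on 3R and 1.72 Mb on X for the longest stretches with 5 peaks. The 2 sparse parts of 2L enclosed a populated island of 17 peaks between 16257219 and 16728442, with the strongest peak of the arm in it. Whether reads can be placed in the poor stretches was not analysed here, so a stretch without a peak is one where none was called.

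Along the arm, peaks were sparsest between 10 and 15 Mb. Their density was 14.0 peaks per Mb (interval 11.0 to 17.7) from the first peak to 5 Mb, 11.6 (8.81 to 15.0) from 5 to 10 Mb, 6.60 (4.54 to 9.27) from 10 to 15 Mb and 9.0 (6.56 to 12.0) from 15 to 20 Mb. From 20 Mb to the last peak it was 12.0 (7.41 to 18.3). The interval of the 10 to 15 Mb part did not overlap that of the first part, but it overlapped those of the other 3 parts. Counted as groups joined at 10 kb or less, the 5 parts held 31, 31, 17, 23 and 7 groups. Median scores of these 5 parts ran from 12.7 to 16.1, and their intervals overlapped. In bins of 500 kb, 4 of the 44 bins of 2L were empty, against 4 of 46 on 3L, 6 of 56 on 3R and 2 of 41 on X. Bins with at most 1 peak numbered 8 on 2L, 7 on 3L, 10 on 3R and 4 on X, and bins with at most 2 numbered 17, 11, 14 and 8. As a share of bins, 2L lay closest to 3L for empty bins and closest to 3R for at most 1 peak, 18.2% against 17.9%. The limit at which the arms differ most was found after the values were seen. The 5 fullest bins of 2L held 34.4% of its peaks, against 32.6% on 3L, 28.1% on 3R and 40% on X. On the centromere-proximal side of the midpoint lay 91 of 227 peaks, 40.1% (33.7 to 46.8), against 42.9% (37.5 to 48.4) on 3L, 47.0% (41.9 to 52.1) on 3R and 40.3% (34.8 to 46.1) on X.

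Arm 2L carried fewer peaks for its length than 3L, 3R and X. It had 10.4 peaks per Mb of its span (interval 9.13 to 11.9), against 14.5 (13.0 to 16.2) on 3L, 13.9 (12.6 to 15.4) on 3R and 15.0 (13.4 to 16.8) on X. The density of 2L was 0.724 times that of the 3 arms together, with an exact 95% interval of 0.625 to 0.837 that lay below 1. Counted as groups joined at 10 kb or less, the ratio was 0.805 (0.647 to 0.995). That interval holds the ratio for peaks. Joined at 1 kb the ratio was 0.801 (0.666 to 0.959). Peaks per group numbered 2.08 on 2L, 2.25 on 3L, 2.39 on 3R and 2.29 on X, and no interval was made for them. How much of the shortfall lay in fewer peaks per group was not tested.

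Large groups were smaller and held a lower share of peaks on 2L. Groups of 5 or more peaks held 46 of its 227 peaks, 20.3% (interval 15.2 to 26.1), against 34.7% (29.6 to 40.1) on 3L, 41.3% (36.3 to 46.4) on 3R and 34.1% (28.8 to 39.7) on X. The largest group had 8 peaks on 2L, 17 on 3L, 19 on 3R and 22 on X. Because the peaks of a group are counted together, these intervals are too narrow, and as a count of groups the difference was 7 of 109, or 6.42%, against 9.52% on 3L, 11.8% on 3R and 6.77% on X. The share of peaks that had any partner within 10 kb was 77.1% on 2L and between 75.8% and 76.4% on the other arms.

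Gaps between adjacent peaks tended to be longer on 2L, within overlapping intervals. Fewer peaks per Mb make gaps longer on average, so these values are not independent of the lower density. Gaps of 1 kb or less were 33.6% of the 226 gaps on 2L (interval 27.5 to 40.2), 37.3% (32.0 to 42.7) on 3L, 40.1% (35.2 to 45.2) on 3R and 42.8% (37.1 to 48.5) on X. Gaps over 100 kb were 26.1% on 2L (20.5 to 32.3) and 21.4% to 22.1% on the others, and those intervals overlapped too. The median gap was 7.68 kb on 2L, 4.27 kb on 3L, 3.30 kb on 3R and 3.29 kb on X, and no interval was made for it. Stretches of 200 kb or more took up 61.6% of the span on 3L, 68.4% on 3R and 59.4% on X, against the 72.7% of 2L, and no test of this difference was made.

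**Figure D4:**
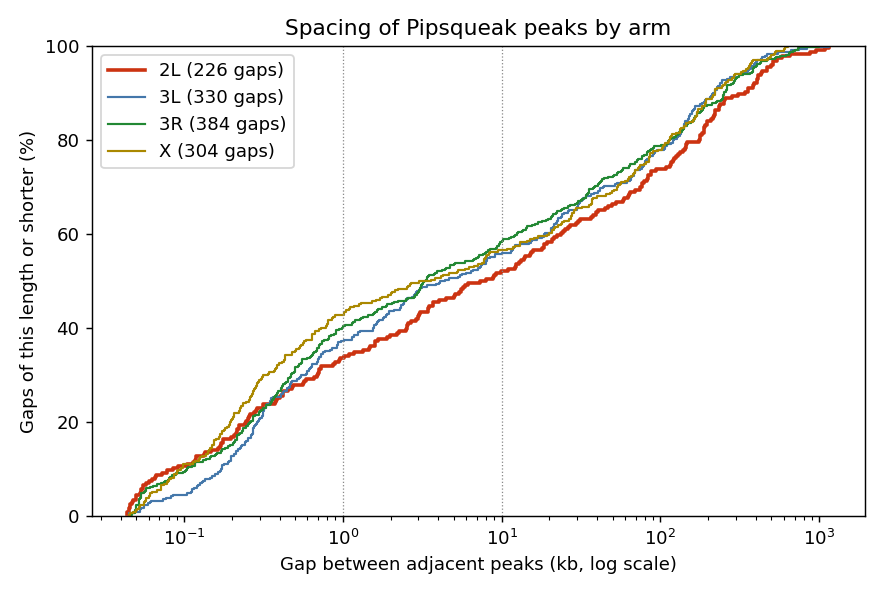
Share of gaps between adjacent peaks, in percent, that are of a given length in kb (log scale) or shorter, for 2L (red), 3L, 3R and X, with dotted lines at 1 and 10 kb. From 1 to 100 kb the 2L curve runs below the others, with a median gap of 7.68 kb against 3.29 to 4.27 kb.

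For single peaks, the median scores of the arms lay close together. Median scores were 13.6 on 2L, 13.8 on 3L, 13.8 on 3R and 14.7 on X, and every median lay inside the interval of 2L (12.6 to 15.5). Median widths were 413 bp on 2L, 411 bp on 3L, 430 bp on 3R and 460 bp on X, and the last lay above the 2L interval of 373 to 451 bp, while the X interval, 401 to 514 bp, overlapped it. Peaks wider than 2000 bp made up 7.05% (4.08 to 11.2) on 2L, 4.83% on 3L, 6.75% on 3R and 6.56% on X. Scores above 50 were reached by 10.1% (6.53 to 14.8) on 2L, 11.5% on 3L, 12.7% on 3R and 9.84% on X, and scores above 100 by 3.52% (1.53 to 6.83), 5.14%, 5.45% and 1.64%. Overlap of intervals does not show that the arms are alike. Taken as the strongest peak of each 10 kb group, the median score was 19.5 on 2L, 25.1 on 3L, 28.4 on 3R and 22.8 on X. It was 25.8 on the 3 arms together, a difference of -6.31 from 2L. With the median of the other arms held fixed, the interval of that difference was -9.0 to -0.5. For single peaks it was -1.6 to 1.24 around -0.69. For the strongest peak of each stretch joined at 1 kb it was -4.54 to 1.36 around -1.33. A group with more peaks has more scores from which its highest is taken. Peaks per group numbered 2.08 on 2L and 2.32 on the 3 arms together, so the group values are not like for like. How much of the difference of -6.31 goes with group size was not tested.

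Scores on 2L took 117 distinct values, the commonest being 8.99, on 8 peaks. A Poisson law with a mean of 36.758 was fitted to the scores of the whole list. Its upper-tail probabilities for whole read numbers, as −log10 values, matched 78.8% of the scores to within 0.015. On 2L, 184 of 227 scores did so. Read on this scale, which is uncertain by 1 read and gives no library depth, those peaks ran from 70 to 348 reads with a median of 92.5. The strongest peak of the arm, at 16349910 to 16354471, thus stood at 9.47 times the fitted mean and the median at 2.52 times. The other 43 scores, 18.9% (interval 14.1 to 24.7), lay off these steps, against 17.8% on 3L, 24.4% on 3R and 4.26% on X. They included 3 of the 21 strongest peaks of 2L, those with scores of 142, 136 and 129, for which no read number can be given.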

How the data were processed

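CASAVA 1.7.0.2 and 1.7.0.3, BWA, MACS2 and the genome build BDGP5 are named in the submitters' processing notes. Per the file headers, positions are those of FlyBase release 5. The deposited score of each peak is the authors' and its quantity is not named in the file. Not given in the sources used here were the settings, the threshold and whether replicates were pooled, and the depth is unknown.

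Peaks of 2L, 3L, 3R and X were compared with Python 3.11.15, numpy 2.4.6, scipy 1.17.1, pandas 2.3.3 and matplotlib 3.10.9. A span ran from the first to the last peak of an arm. Shares have exact (Clopper-Pearson) intervals, densities exact Poisson intervals, ratios of densities exact conditional binomial intervals and medians order-statistic intervals. The Poisson mean was sought between 5 and 150 within 0.005. Joining, the median intervals and the Poisson search were tested on simulated data. The intervals of shares, densities and ratios were not. The list of 1661 peaks covers the series as a whole.

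Named regions were the 20 highest scores (21 with a tie), the 10 widest peaks, groups of 5 or more, the 10 longest stretches without a peak and the 3 fullest 100 kb windows. Members and rules were chosen with earlier results of these data known. Other regions, namely the widest joined stretches, the flanks, the sparse stretches with 1 or 5 peaks, the narrow peak with a score of 48.8 and the lowest-scoring peak, were picked with their values in view.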

Additional observations from a re-analysis of the deposited data

How the results depend on the processing

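No paired analysis was possible because no replicate is named in the list, nor could a replicate be left out. The lower density of 2L kept its direction under every alternative tried. With scores above 26.3, the upper quartile of the 4 arms, the ratio was 0.601 (0.433 to 0.821). That interval holds the ratio for all peaks. Grouping depended on both the threshold and the joining distance, as removing peaks or shortening the distance leaves fewer partners. It was 77.1% as reported, while 58.2% of the peaks above the median score of 14.1 and 22.9% of those above the upper quartile shared a 10 kb group, and 53.7% of all peaks did so when joined at 1 kb. Groups of 5 or more numbered 4 when joined at 5 kb, 11 at 20 kb, and 2 when peaks 1 kb or less apart were first counted as 1. Stretches without a peak took up 89.0% of the span when counted from 100 kb, 59.7% when counted from 300 kb, and 87.5% for peaks above the upper quartile. The difference of median scores, 2L minus the other arms together, was -0.69 for peaks and -6.31 (interval -9.0 to -0.5) for the strongest peaks of 10 kb groups. For the strongest peaks of stretches joined at 1 kb it was -1.33 (-4.54 to 1.36). The value for groups also depends on the number of peaks per group, which was lower on 2L. The difference of median widths was -18 bp (-58 to 20) for peaks and -152 bp (-283 to 52) for stretches joined at 1 kb. For peaks above the upper quartile it was 57 bp (-225 to 628), and each of these intervals holds 0. Of the peaks above the upper quartile 50% (35.2 to 64.8) lay on the centromere-proximal side. That interval holds the share of all peaks. The cause of the differences between settings was not tested, and without depth per library a weak peak cannot be told from an absent one.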
